A study of Ictalurus furcatus with 6 samples.

Results

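Transcripts of the pre-mRNA splicing machinery and of related RNA-binding proteins were followed in testicular sperm of blue catfish (*Ictalurus furcatus*), comparing cryopreserved with fresh-frozen sperm. Genes were taken by name from the deposited expression table. They comprised the proteins of the small nuclear ribonucleoproteins (snRNPs), the LSm proteins with *naa38*, the SF3A, SF3B, U2AF, SF1 and U2SURP factors, the PRPF proteins, the SR proteins and the CLK and SRPK kinases that phosphorylate them, the hnRNP proteins, the numbered RBM proteins and KHDC4. The names gave 134 of the 27416 features in the table, with 123 distinct names, and 29 of the 134 were named only by the second of the table's name columns. The names alone decided the choice. Not every one of these proteins is a part of the spliceosome, and roles outside splicing are given where a gene is described.

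The cryopreserved group held samples C2, C3 and C5. Its sperm were frozen at a controlled rate in a buffered salt extender, with methanol as the cryoprotectant. The fresh-frozen group held F2 and F3, which were flash-frozen in liquid nitrogen. Both kinds of sample came from dissected testes of mature males labelled as strain D&B, went through the same thawing procedure before RNA extraction, and were sequenced as poly(A) libraries. The number in a sample name is the male, so C2 and F2 share a male, as do C3 and F3, while C5 has no fresh-frozen partner here because the table holds no column for F5. The study lists F5 as excluded, with a low mapping rate.

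Splicing removes introns in a cycle of snRNP assembly. The U1 snRNP recognises the 5′ splice site, SF1, U2AF and the U2 snRNP with SF3A and SF3B recognise the branch site and the 3′ splice site, and the U4/U6.U5 tri-snRNP then joins to form the catalytic core, in which PRPF8 is the central scaffold. Sm proteins form a ring on U1, U2, U4 and U5 RNA, and LSm proteins form the corresponding ring on U6 RNA or, in another combination, on mRNA that is to be degraded. SR proteins mostly promote and hnRNP proteins often restrain the use of nearby splice sites. In animals, transcription ceases during late spermiogenesis, so that the mRNA of mature sperm is largely left from earlier germ cell stages.

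Values are in CPM, reads counted per 1e+06 reads of the library, not divided by gene length, so they were compared between samples and not between genes. The median over all features was 9.55, 15.0 and 2.03 CPM in C2, C3 and C5, against 15.7 and 15.6 CPM in F2 and F3. C5 stood apart, with the lowest median. Some values in F2 and F3 lay only very close to 0 and were taken as 0. Values taken as 0 numbered 2664 for C5, 566 for F2 and 128 for F3, while C2 and C3 held none. The lowest value above these was 0.0200, 0.0263 and 0.0477 CPM in C2, C3 and C5, and 0.344 and 0.147 CPM in F2 and F3. How the values near 0 arose is not given in the sources used here, and no conclusion about the libraries is drawn from them. The study lists more filtered reads for F2 and F3 than for C2, C3 and C5, with the fewest for C3, and how depth bears on the results was not tested. The values were not used as counts, so no counting error is given. In bulk RNA, fewer cells of a type and less RNA per cell cannot be told apart, and in values scaled to a total each change is relative to all other transcripts.

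The splicing genes were relatively more abundant after cryopreservation than the table as a whole. Together they made up 1.36%, 1.14% and 1.34% of the total in C2, C3 and C5, against 0.979% and 0.989% in F2 and F3, so every cryopreserved sample lay above both fresh-frozen samples. Their median log2 fold change, cryopreserved over fresh-frozen on log2(CPM + 1), was 0.25, against −1.02 over all 27255 features tested. A positive change was found in 79 of 134 (59.0%), against 25.0% of all features. All of C2, C3 and C5 exceeded both F2 and F3 for 46 of them (34.3%), against 13.6% of all features, and all 3 lay below both for 25 (18.7%), against 41.7%. The remaining 63 overlapped between the groups. The median over the splicing genes was 64.4, 62.6 and 50.6 CPM in C2, C3 and C5, and 48.3 and 49.1 CPM in F2 and F3. It thus lay above the median of all features in each sample. All features were not matched to the splicing genes for level, and how level bears on these differences was not tested. Rescaling by TMM, centring on the median and quantile normalization moved the median of all features to −0.16, 0.03 and −0.22, and the median of the splicing genes to 1.44, 1.30 and 0.75. The splicing genes thus exceeded all features by 1.27 as deposited, and by 1.60 and 0.97 under TMM rescaling and quantile normalization. Median centring shifts the log2 fold change of every feature by the same amount. It could therefore not change this difference, which stayed at 1.27. A positive log2 fold change was found in 117, 115 and 94 splicing genes under TMM rescaling, median centring and quantile normalization. These are 87.3%, 85.8% and 70.1%, against 45.3%, 50.9% and 43.3% of all features. Genes described below as lower are lower in the values as deposited, and the sign of many depended on the scaling.

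Few single genes passed the test. With the thresholds of the study, an FDR from limma below 0.05 and a log2 fold change above 2, 3 of the 134 splicing genes (2.24%) were upregulated, against 1.54% of all features, so the share of calls was near that of the table. They were the feature of *rbm25* with ID AUIFUG00000034713, that of *hnrnpa0* with ID AUIFUG00000001991, and *srsf6*. None was downregulated, as for all features (0.0%), and 3 splicing genes had a log2 fold change below −2 with an unadjusted p below 0.05. At any p, 4 splicing genes had a log2 fold change below −2, as did 19.6% of all features. For counts at an unadjusted p, here and below, no share of all features is given, so nothing is concluded from them. The study's own test, edgeR on counts, called more genes of the whole table in both directions at these thresholds. With the male as a replicate block, 10 splicing genes (7.46%) were upregulated, against 4.17% of all features, and 0 were downregulated, against 0.44%. The block fit compares C2 with F2 and C3 with F3 and keeps only 1 residual degree of freedom, and limma's prior sets its variances. A block FDR therefore does not measure how far the males agree for a single gene.

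The number of calls depended on single libraries. Without C3 there were 19 upregulated (14.2%) and 8 downregulated (5.97%) splicing genes, against 6.77% and 25.6% of all features. Without C5 there were 8 upregulated (5.97%) and 0 downregulated, against 3.1% and 0.0915% of all features. Without F2 only the *rbm25* feature stayed upregulated (0.752%, against 1.17% of all features). Without C2 or without F3 none did, against 0.0% and 0.969% of all features, although 10 had a log2 fold change above 2 with an unadjusted p below 0.05 in each of these fits. The median log2 fold change of the splicing genes stayed between 0.16 and 0.28 in these 5 fits. All 3 calls also ended with a pseudocount of 0.1 (FDR between 0.0636 and 0.0941), under median centring (0.140 to 0.190) and with a constant prior in limma (0.112 to 0.245).

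**Figure D1:**
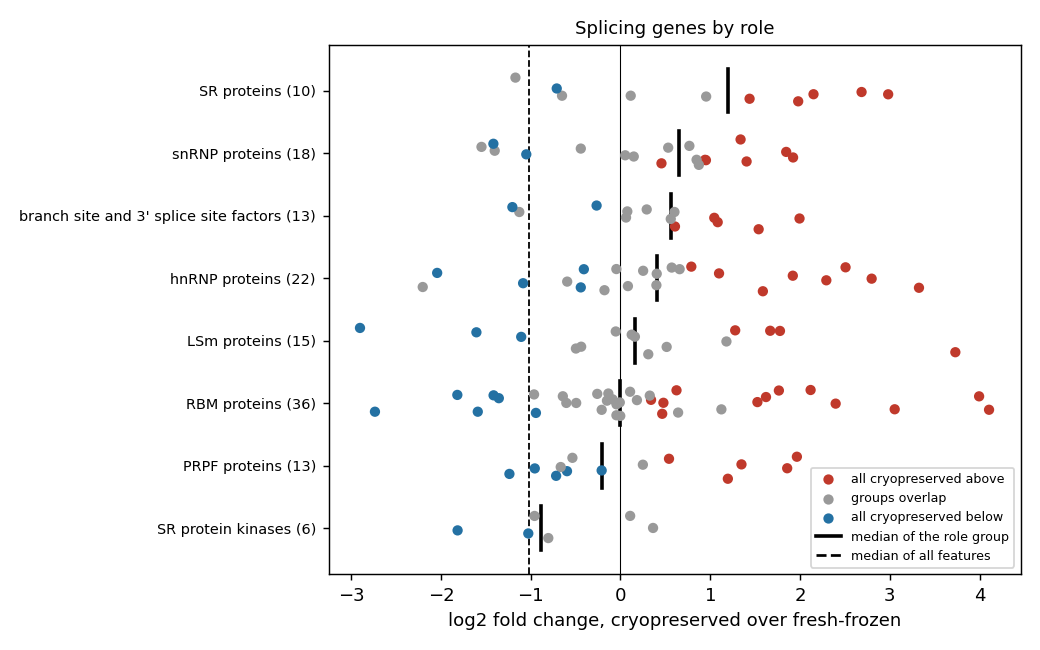
Log2 fold change of each splicing gene, cryopreserved over fresh-frozen, by role group (number of features in brackets). Red points are genes with all 3 cryopreserved samples above both fresh-frozen samples, blue points those with all 3 below, and grey points those whose groups overlap. Short bars are medians of the role groups, and the dashed line is the median of all features, −1.02. Among groups of more than 1 feature, SR proteins have the highest median (1.20) and the SR protein kinases the lowest (−0.88).

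The snRNP proteins were measured by 18 features, with a median log2 fold change of 0.65. Without overlap 7 lay above (38.9%) and 2 below (11.1%). For this and the following role groups, the shares of all features were 13.6% above and 41.7% below. No snRNP feature passed the test. A positive log2 fold change was found in 13 of the 18 as deposited. The number was 15, 15 and 14 under TMM rescaling, median centring and quantile normalization. The highest value belonged to *snrpc*, which encodes a U1-specific protein that stabilises the pairing of U1 with the 5′ splice site. It had 50.4 CPM in C2, 28.9 CPM in C3 and 39.3 CPM in C5, against 13.1 CPM in F2 and 6.72 CPM in F3, with no overlap (log2 fold change 1.92, FDR = 0.265). The U1-70K gene *snrnp70* had 230.2, 126 and 61.5 CPM across C2, C3 and C5, against 121 and 114 CPM across F2 and F3, so C2 was high and C5 low, and its log2 fold change was 0.05.

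The 7 Sm core proteins differed among themselves. SNRPB, SNRPD2, SNRPE and SNRPD1 were above in all cryopreserved samples, with log2 fold changes between 0.94 and 1.85. *SNRPD2* had 57.8 CPM in C2, 28.2 CPM in C3 and 29.6 CPM in C5, against 13.5 CPM in F2 and 6.48 CPM in F3, and *SNRPB* had 260.3 CPM in C2, 206 CPM in C3 and 388 CPM in C5, against 105 CPM in F2 and 112 CPM in F3. SNRPD3, SNRPG and SNRPF overlapped between the groups, at log2 fold changes of 0.85, 0.77 and −0.44, and each of the 7 had an FDR of at least 0.265.

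Among the other snRNP proteins, *snrpa1*, which encodes a specific protein of the U2 snRNP, had 95.5, 129 and 24.2 CPM across C2, C3 and C5, against 193 and 169 CPM across F2 and F3, with C5 far below the others (log2 fold change −1.42, FDR = 0.271). The other gene that was lower without overlap, in the values as deposited, was *snrnp200*, the U5 helicase that unwinds U4 from U6. It had 74.8 CPM in C2, 145 CPM in C3 and 86.5 CPM in C5, against 218 CPM in F2 and 191 CPM in F3. *snrnp48*, a protein of the minor spliceosome, had the lowest log2 fold change of the snRNP proteins (−1.55), but its 9.01 CPM in C2, 32.9 CPM in C3 and 3.70 CPM in C5, against 22.9 CPM in F2 and 47.7 CPM in F3 overlapped, since C3 lay between the fresh-frozen samples. The other minor spliceosome transcripts, *snrnp25* and *snrnp35*, were below 10 CPM in all samples and overlapped.

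The LSm proteins were represented by 15 features, including *naa38*, with 4 above and 3 below without overlap and a median of 0.16. *naa38* encodes an LSm-domain protein that is an auxiliary subunit of the N-terminal acetyltransferase NatC. The name has also been used for LSM8, which has its own feature in this table. *naa38* had 97.3 CPM in C2, 13.9 CPM in C3 and 19.9 CPM in C5, against 0.347 CPM in F2 and 3.12 CPM in F3. The F2 value is close to 0.344 CPM, the smallest value of that column not taken as 0. C2 was several times higher than C3 and C5. Its log2 fold change of 3.73 (SE 1.11) had an FDR of 0.175 without and 3.95e-05 with the block. C2 exceeded F2 by 6.19 log2 units and C3 exceeded F3 by 1.85, a spread that the block FDR does not reflect. The study reports *naa38* as upregulated by its edgeR test and as higher by qRT-PCR. The features of the other NatC subunits, shown for their role, differed in direction. *naa35* had 74.7, 53.2 and 124 CPM across C2, C3 and C5, against 21.1 and 27.6 CPM across F2 and F3, and *NAA30*, the catalytic subunit, had 16.7 CPM in C2, 30.9 CPM in C3 and 14.1 CPM in C5, against 59.4 CPM in F2 and 42.0 CPM in F3, and neither passed the test (FDR = 0.265 and 0.308).

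Among the ring-forming LSm proteins, *lsm7*, *LSM8* and *LSM1* were above without overlap and *lsm2* below. LSM8 marks the ring on U6 RNA and LSM1 the ring that acts with decapping factors in mRNA decay. *LSM8* had 42.1 CPM in C2, 25.9 CPM in C3 and 22.4 CPM in C5, against 10.9 CPM in F2 and 6.50 CPM in F3, and *LSM1* had 32.2, 28.9 and 34.8 CPM across C2, C3 and C5, against 10.2 and 15.4 CPM across F2 and F3, so the transcripts that tell the nuclear from the cytoplasmic ring were both higher in every cryopreserved sample (log2 fold changes 1.67 and 1.28, FDR = 0.271 and 0.323). *lsm2*, a subunit of both rings, had 42.8 CPM in C2, 38.6 CPM in C3 and 7.53 CPM in C5, against 88.9 CPM in F2 and 61.0 CPM in F3 (log2 fold change −1.60, FDR = 0.281). *LSM3*, which is also shared by both rings, overlapped at a log2 fold change of −0.05, and LSM4, LSM5 and LSM6 overlapped too.

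The lowest log2 fold change of the whole set was that of *lsm14b*, which encodes a protein of cytoplasmic messenger ribonucleoprotein granules that in mouse and frog is known from oocytes. It had 37.4, 136 and 5.19 CPM across C2, C3 and C5, against 267 and 211 CPM across F2 and F3, a log2 fold change of −2.90 (SE 1.07, FDR = 0.265). C3 was far above C2 and C5, so the spread within the cryopreserved group was wide. The features *lsm14a* and *lsm14aa* overlapped between the groups.

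Branch site and 3′ splice site factors had 13 features, with 5 above (38.5%) and 2 below (15.4%) and a median of 0.56. The SF3B subunit gene *sf3b4* had the highest log2 fold change, 1.99, with 43.1, 16.1 and 66.8 CPM across C2, C3 and C5, against 8.01 and 8.64 CPM across F2 and F3 (FDR = 0.265). The SF3A and SF3B subunits *sf3a1*, *sf3b2* and *sf3a2* were also above without overlap. *sf3a1* had 243, 146 and 447 CPM across C2, C3 and C5, against 101 and 72.7 CPM across F2 and F3. *sf3b1*, the large subunit that holds the branch site, had 614 CPM in C2, 369 CPM in C3 and 521 CPM in C5, against 281 CPM in F2 and 394 CPM in F3 and overlapped because C3 lay below F3 (log2 fold change 0.56).

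The heterodimer that reads the 3′ splice site was split in the values as deposited, but none of its features passed the test. In this role group 10 of the 13 features had a positive log2 fold change as deposited. The number was 12 under TMM rescaling, 11 under median centring and 8 under quantile normalization. Under TMM rescaling the features of the large subunit can thus not both have stayed lower. Median centring moved every feature by the same amount, taking the median of all features from −1.02 to 0.03. The large-subunit feature *u2af2* thus turned positive there, while *u2af2a* stayed negative. For quantile normalization these counts do not show how the split fared. *u2af1*, the small subunit that contacts the AG dinucleotide, had 129, 110.0 and 148 CPM across C2, C3 and C5, against 91.8 and 76.4 CPM across F2 and F3 (log2 fold change 0.61, FDR = 0.472). Both features of the large subunit, which binds the polypyrimidine tract, were lower without overlap. *u2af2* had 207 CPM in C2, 245 CPM in C3 and 239 CPM in C5, against 269 CPM in F2 and 284 CPM in F3, a small difference, and *u2af2a* had 17.9 CPM in C2, 24.9 CPM in C3 and 6.21 CPM in C5, against 32.4 CPM in F2 and 35.8 CPM in F3 (log2 fold changes −0.27 and −1.20, FDR = 0.679 and 0.379). *sf3b3* had the smallest change of the group, 0.06.

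Of the 13 features of PRPF proteins, 5 lay above (38.5%, against 13.6% of all features), 5 below (38.5%, against 41.7%) and 3 overlapped. Their median of −0.21 turned to 0.99 and 0.84 under TMM rescaling and median centring, and was −0.09 under quantile normalization. A positive log2 fold change was found in 6 of the 13 as deposited, in 12 under TMM rescaling, in 12 under median centring and in 6 under quantile normalization. *prpf38b* had 113, 86.5 and 135 CPM across C2, C3 and C5, against 29.9 and 25.0 CPM across F2 and F3 (log2 fold change 1.96, FDR = 0.265). Of the U4/U6 proteins, *prpf31* and *PRPF4* were also above, whereas *PRPF3* was below. *prpf31* had 167 CPM in C2, 88.8 CPM in C3 and 192 CPM in C5, against 37.9 CPM in F2 and 39.0 CPM in F3. *PRPF3* had 62.0, 82.6 and 52.6 CPM across C2, C3 and C5, against 92.5 and 104 CPM across F2 and F3 (log2 fold change −0.60, FDR = 0.524).

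PRPF8 and PRPF6, proteins of U5 and of the tri-snRNP, also lay below in the values as deposited. *prpf8* had 185, 283 and 155 CPM across C2, C3 and C5, against 320.3 and 342 CPM across F2 and F3 (log2 fold change −0.72, FDR = 0.320). *prpf6*, which bridges U5 and U4/U6, had 171, 168 and 203 CPM across C2, C3 and C5, against 204 and 214 CPM across F2 and F3, so the groups were narrowly separated and the log2 fold change was −0.21. *prpf18*, a factor of the second catalytic step, had the lowest value of the PRPF proteins (−1.24), with 25.6, 60.4 and 13.9 CPM across C2, C3 and C5, against 68.1 and 66.4 CPM across F2 and F3. *PRPF39*, a U1-associated protein, had 157 CPM in C2, 214 CPM in C3 and 63.4 CPM in C5, against 249 CPM in F2 and 252 CPM in F3, again with C5 lowest.

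SR proteins had the highest median of the role groups with more than 1 feature, 1.20, with 5 of 10 features above (50.0%) and 1 below (10.0%). *SRSF6* was upregulated, at 462 CPM in C2, 206 CPM in C3 and 638 CPM in C5, against 62.3 CPM in F2 and 58.4 CPM in F3, which averaged 435 ± 217 CPM in the cryopreserved samples (SD, n = 3) and 60.4 ± 2.75 CPM in the fresh-frozen samples (SD, n = 2). Its log2 fold change was 2.68 (SE 0.58, FDR = 0.0433). The FDR was 0.449 without C2, where 0.0% of all features were upregulated, so the loss of this call was not particular to *SRSF6*. The call also ended under TMM rescaling (FDR = 0.0793), where the log2 fold change was 3.87, and with a filter at a group mean above 5 CPM (FDR = 0.0679).

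*SRSF2*, which promotes exon inclusion and early spliceosome assembly, had 229, 105 and 278 CPM across C2, C3 and C5, against 19.3 and 27.4 CPM across F2 and F3. Its log2 fold change of 2.98 (SE 0.69) had an FDR of 0.0575 without and 0.000804 with the block. *srsf7a*, whose human counterpart also acts in mRNA export, had 196, 98.7 and 339 CPM across C2, C3 and C5, against 36.4 and 47.2 CPM across F2 and F3 (log2 fold change 2.15, FDR = 0.205). *srsf9* and *srsf1b* were above as well, at log2 fold changes of 1.98 and 1.44. At the other end, *SRSF11* had 147 CPM in C2, 225 CPM in C3 and 35 CPM in C5, against 216 CPM in F2 and 263 CPM in F3, and it overlapped because C3 exceeded F2 (log2 fold change −1.17). *srsf3* had the smallest log2 fold change of the SR proteins (0.11).

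The SR protein kinases had 6 features, of which 2 lay below (33.3%, against 41.7% of all features), 4 overlapped and none passed the test. The median of −0.88 turned to 0.15, 0.17 and 0.02 under TMM rescaling, median centring and quantile normalization. *CLK4*, a nuclear kinase that releases SR proteins from speckles, had 26.3 CPM in C2, 88.3 CPM in C3 and 14.2 CPM in C5, against 107 CPM in F2 and 126 CPM in F3 (log2 fold change −1.81, FDR = 0.265). *srpk1b*, a copy of the mainly cytoplasmic kinase SRPK1, had 77.6 CPM in C2, 48.6 CPM in C3 and 87.0 CPM in C5, against 49.9 CPM in F2 and 57.3 CPM in F3. *clk2b* was low in all samples, with 7.90 CPM in C2, 3.16 CPM in C3 and 1.71 CPM in C5, against 1.44 CPM in F2 and 6.62 CPM in F3.

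hnRNP proteins had 22 features, 8 above (36.4%) and 4 below (18.2%), and a median of 0.40. A positive log2 fold change was found in 14 of the 22 as deposited. The number was 20, 19 and 16 under TMM rescaling, median centring and quantile normalization. The upregulated *hnrnpa0* feature, whose product binds AU-rich elements of mRNA, had 248 CPM in C2, 102 CPM in C3 and 214 CPM in C5, against 18.2 CPM in F2 and 15.2 CPM in F3, which averaged 188 ± 76.5 CPM in the cryopreserved samples (SD, n = 3) and 16.7 ± 2.16 CPM in the fresh-frozen samples (SD, n = 2). Its log2 fold change was 3.32 (SE 0.70, FDR = 0.0390), and the FDR was 0.449 without C2, 0.126 without F2 and 0.240 without F3. *HNRNPH1*, which binds runs of G, had 265 CPM in C2, 141 CPM in C3 and 355 CPM in C5, against 43.4 CPM in F2 and 25.4 CPM in F3 (FDR = 0.0567, with the block 0.000721). *HNRNPAB* had 329, 179 and 518 CPM across C2, C3 and C5, against 57.9 and 50.7 CPM across F2 and F3 (FDR = 0.0625, with the block 0.00138). The log2 fold changes of these 2 genes were 2.80 and 2.51, and in both genes C5 was highest and C3 lowest among the cryopreserved samples.

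*hnrnpa1b*, a copy of the gene for the splicing silencer hnRNP A1, had 111, 69.1 and 128 CPM across C2, C3 and C5, against 18.9 and 20.1 CPM across F2 and F3 (log2 fold change 2.29, FDR = 0.206). *hnrnpm* had 700.3 CPM in C2, 325 CPM in C3 and 546 CPM in C5, against 179 CPM in F2 and 153 CPM in F3, a log2 fold change of 1.59 (SE 0.46, FDR = 0.150). The lowest hnRNP transcripts were 2 features that share their name with features of smaller change. *HNRNPUL1* AUIFUG00000041028 had 28.5, 139 and 18.7 CPM across C2, C3 and C5, against 179 and 176 CPM across F2 and F3 (log2 fold change −2.04, FDR = 0.265). *hnrnpl* AUIFUG00000019108 had 13.5, 72.1 and 1.86 CPM across C2, C3 and C5, against 63.4 and 68.0 CPM across F2 and F3, and it overlapped because C3 was above both fresh-frozen samples. *HNRNPC*, which binds U tracts of nascent transcripts, was below without overlap, with 69.3 CPM in C2, 69.7 CPM in C3 and 14.7 CPM in C5, against 90.4 CPM in F2 and 88.8 CPM in F3.

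The numbered RBM proteins, 36 features, are a mixed family defined by the RNA recognition motif. They held the genes with the largest changes as well as many with small changes, with 12 above (33.3%), 6 below (16.7%) and 18 overlapping. Their median of −0.0050 turned to 1.13, 1.05 and 0.52 under the 3 scalings. RBM25, a splicing factor that works with the U1 snRNP, had the largest log2 fold change of the set. Its upregulated feature had 265 CPM in C2, 82.1 CPM in C3 and 242 CPM in C5, against 12 CPM in F2 and 6.96 CPM in F3, which averaged 197 ± 99.8 CPM in the cryopreserved samples (SD, n = 3) and 9.50 ± 3.58 CPM in the fresh-frozen samples (SD, n = 2), a log2 fold change of 4.1 (SE 0.79, FDR = 0.0251). The FDR was 0.449 without C2 and 0.0850 without F3.

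*RBM4B*, of a family that regulates alternative splicing, had 114 CPM in C2, 40.4 CPM in C3 and 198 CPM in C5, against 5.46 CPM in F2 and 4.89 CPM in F3. Its log2 fold change of 3.99 (SE 0.90) had an FDR of 0.0521 without and 0.000277 with the block. *rbm18* had 168, 106 and 234 CPM across C2, C3 and C5, against 17.8 and 19.2 CPM across F2 and F3 (log2 fold change 3.05, FDR = 0.0521, with the block 0.00106). *rbm46*, which in mouse is required for germ cells to enter and pass meiosis, had 72.1, 26.7 and 40.1 CPM across C2, C3 and C5, against 9.11 and 5.80 CPM across F2 and F3 (log2 fold change 2.40, FDR = 0.265, with the block 0.0444). In all 3 genes C3 was the lowest cryopreserved sample and still above both fresh-frozen samples.

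Lower RBM transcripts included *rbm24*, a regulator of muscle splicing and mRNA stability, with 6.19 CPM in C2, 48.5 CPM in C3 and 1.20 CPM in C5, against 58.3 CPM in F2 and 62.4 CPM in F3 (log2 fold change −2.73, SE 1.22, FDR = 0.265). C3 was close to the fresh-frozen samples, while C2 and C5 were far below. *rbm15b*, a component of the complex that methylates adenosine in mRNA, had 20.2 CPM in C2, 52.0 CPM in C3 and 9.37 CPM in C5, against 53.2 CPM in F2 and 66.2 CPM in F3 (log2 fold change −1.41), and its relative *RBM15* overlapped at −0.0023. *rbm48*, a minor spliceosome protein, had 19.5, 33.2 and 9.55 CPM across C2, C3 and C5, against 55.7 and 42.7 CPM across F2 and F3 (log2 fold change −1.35). Several RBM proteins that belong to the spliceosome or the exon junction complex had smaller changes. *rbm22*, which contacts the catalytic RNA core, had 177 CPM in C2, 191 CPM in C3 and 282 CPM in C5, against 145 CPM in F2 and 162 CPM in F3, and *rbm8a*, the Y14 subunit of the exon junction complex, had 171 CPM in C2, 137 CPM in C3 and 94.8 CPM in C5, against 124 CPM in F2 and 107 CPM in F3 and overlapped.

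The only splicing genes with a value taken as 0 were *RBM33* AUIFUG00000043257, in F2, and *rbm11*, in C5. This *RBM33* feature had 3.52, 2.36 and 3.32 CPM across C2, C3 and C5, against 0 and 2.43 CPM across F2 and F3. *rbm11* had 1.24, 1.43 and 0 CPM across C2, C3 and C5, against 2.57 and 0.160 CPM across F2 and F3. Both were below 4 CPM in every sample and overlapped.

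The last gene of the set, *khdc4*, encodes a splicing factor with KH domains. Its values were 36.4 CPM in C2, 5.51 CPM in C3 and 38.7 CPM in C5, against 2.54 CPM in F2 and 5.65 CPM in F3. C2 and C5 were high and C3 was at the level of F3, so the groups overlapped (log2 fold change 2.14, SE 1.09, FDR = 0.267).

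**Figure D2:**
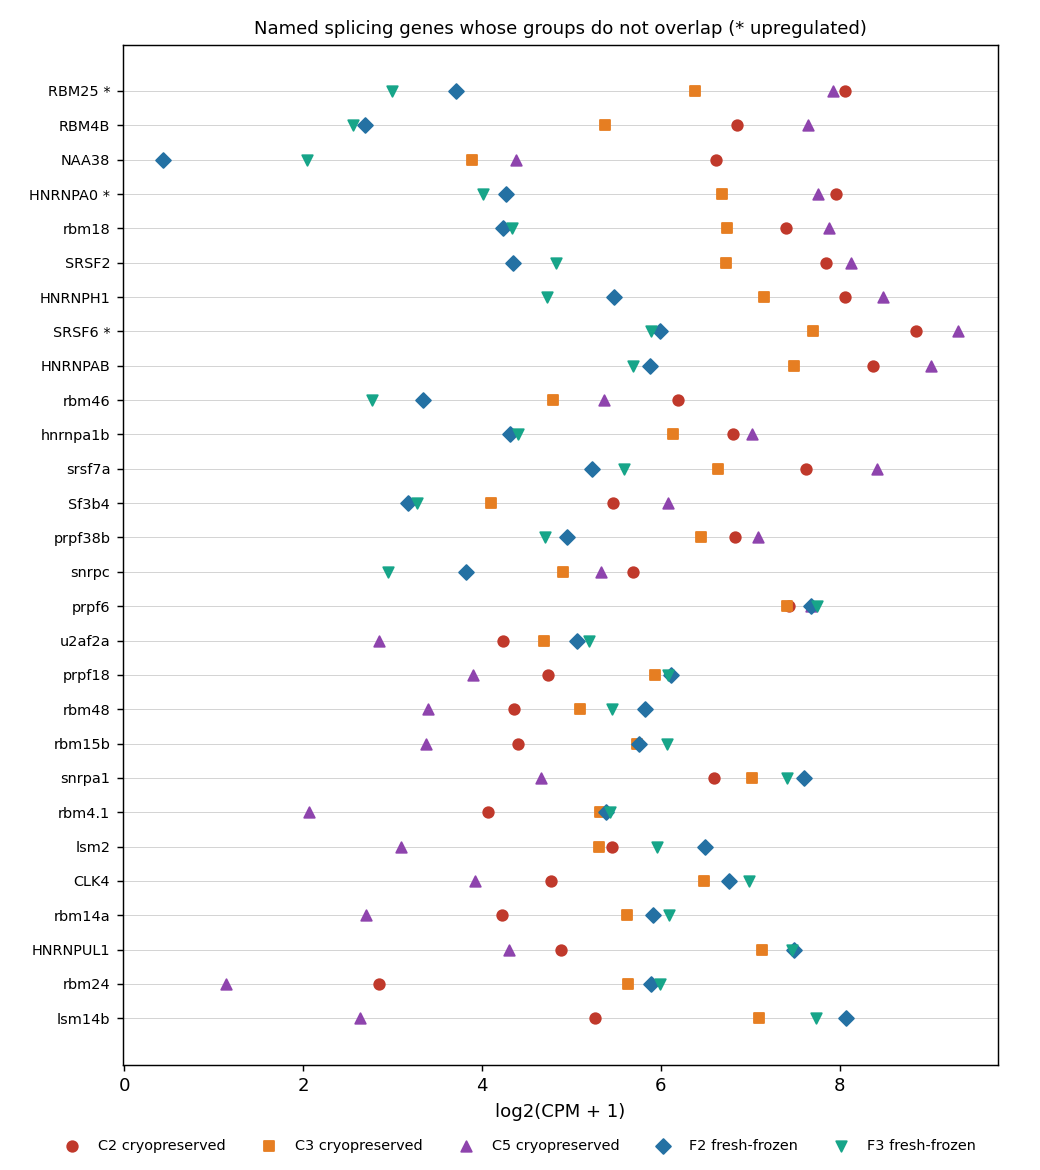
Values by sample, as log2(CPM + 1), for the named splicing genes whose groups do not overlap, ordered by log2 fold change. Each marker is 1 sample, and asterisks mark the 3 upregulated genes. In the upper genes C3 (orange squares) is mostly the cryopreserved sample nearest to F2 and F3, and in the lower genes C5 (purple triangles) is mostly the lowest. *HNRNPUL1* is the feature AUIFUG00000041028.

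The 3 cryopreserved samples differed in how far they lay from the fresh-frozen ones. Their range was 1.1 log2 units in the median splicing gene, against 0.31 between F2 and F3 and 0.15 between the technical replicates of C2. The difference between the groups, 0.91 in the median gene, exceeded the range of C2, C3 and C5 for 42 of 134 genes. C3 was closest to the fresh-frozen mean for 96 genes (71.6%), near the 72.5% of all features, so this order was not particular to splicing genes. Of the 46 genes that were above without overlap, C3 was the lowest cryopreserved sample in 39, and C5 the highest in 25 and C2 in 19. Of the 25 that were below, C3 was the highest in 22 and C5 the lowest in 21.

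Within males, the 2 comparisons mostly had the same sign. C2 minus F2 and C3 minus F3 were both positive for 62 splicing genes, both negative for 34 and of opposite sign for the rest. Their size differed, with a median absolute difference of 0.95 for male 2 and 0.44 for male 3, and of 1.30 for C5 against the mean of F2 and F3. The median signed difference from the fresh-frozen mean was 0.45, 0.14 and 0.21 in C2, C3 and C5, against −0.74, −0.21 and −1.93 over all features. The median of the splicing genes was therefore positive in each cryopreserved sample, while that of all features was negative in each.

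**Figure D3:**
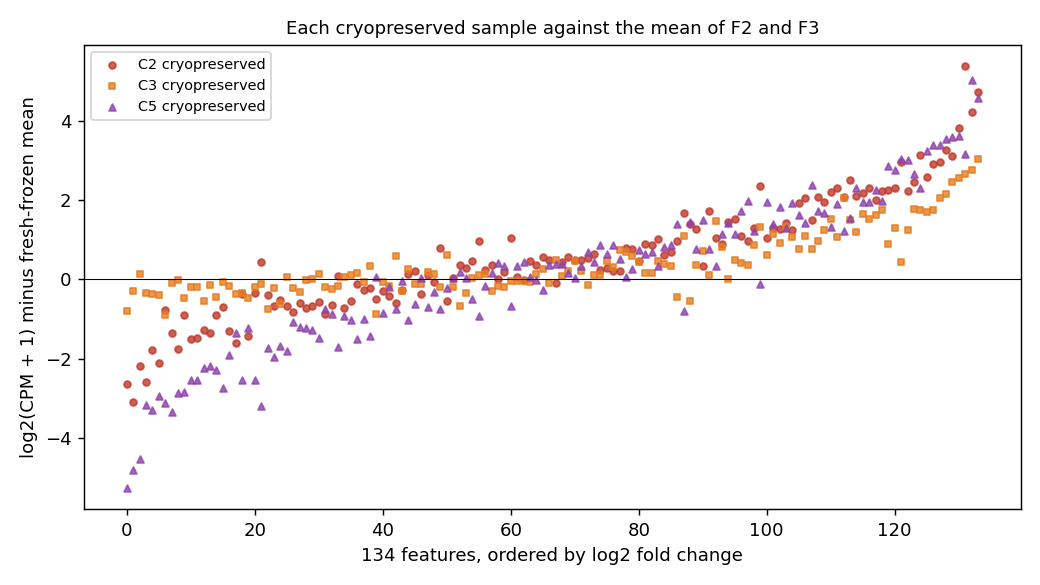
Difference of C2, C3 and C5 from the mean of F2 and F3, in log2(CPM + 1), for the 134 splicing genes ordered by log2 fold change. Each column of 3 points is a gene. C3 (orange) is mostly nearest to 0 at both ends, and C5 (purple) reaches the lowest values on the left.

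Features that share a gene name, or differ only in a copy suffix, often lay apart. The 18 groups described here, with 41 features, were formed after the values were seen. *RBM4B* was grouped with *rbm4.1* and *rbm4.2*. Other names that differ in a suffix, such as *RBM15* and *rbm15b* or *prpf38a* and *prpf38b*, were not grouped, so the groups are not a complete list. The groups were not compared with sets of unrelated splicing genes, so their spread is not read as particular to copies. In the values as deposited, the copies had log2 fold changes of opposite sign in 14 of the 18. In 4 of them, *srsf1*, *rbm14*, *rbm4* and *hnrnpa0*, a copy was wholly above and another wholly below. These signs depended on the scaling. Under TMM rescaling 10 of 10 SR protein, 20 of 22 hnRNP and 31 of 36 RBM features had a positive log2 fold change. The *srsf1* and *srsf7* copies then no longer differed in sign. Under quantile normalization 7, 16 and 28 of these features were positive. How the authors' counting treated reads that fit several copies is not given in the sources used here, so the split between copies is uncertain.

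For *srsf1*, the gene of the founding SR protein, *srsf1b* had 134, 60.0 and 109 CPM across C2, C3 and C5, against 36.1 and 33.4 CPM across F2 and F3, while *srsf1a* had 105 CPM in C2, 128 CPM in C3 and 69.1 CPM in C5, against 171 CPM in F2 and 151 CPM in F3. The share of *srsf1b* in their sum was 56.1%, 31.9% and 61.2% in C2, C3 and C5, against 17.5% and 18.1% in F2 and F3. The sum itself was 239, 188 and 178 CPM, against 207 and 184 CPM, and overlapped. Among the *srsf7* copies, *srsf7a* was at 63.6%, 35.5% and 82.1% of their sum in C2, C3 and C5, against 15.6% and 22.3% in F2 and F3. *srsf7* itself had 112, 179.5 and 73.9 CPM across C2, C3 and C5, against 197 and 165 CPM across F2 and F3 and overlapped. The sum of the *srsf7* copies was 309, 278 and 413 CPM in C2, C3 and C5, against 234 and 212 CPM in F2 and F3, and so was higher in every cryopreserved sample.

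The 2 features of *hnrnpa0* lay apart as well. The feature AUIFUG00000001991 is described above, whereas AUIFUG00000030039 had 145 CPM in C2, 167 CPM in C3 and 87.2 CPM in C5, against 174 CPM in F2 and 176 CPM in F3 (log2 fold change −0.44). The upregulated one made up 63.0%, 37.8% and 71.1% of their sum in the cryopreserved samples C2, C3 and C5, against 9.49% and 7.92% in F2 and F3. Their sum was 393, 269 and 302 CPM in C2, C3 and C5, against 192 and 191 CPM in F2 and F3. In the *rbm4* group *RBM4B* made up 59.2%, 26.0% and 69.5%, against 4.52% and 3.57%, while *rbm4.1* had 15.7 CPM in C2, 39.1 CPM in C3 and 3.19 CPM in C5, against 40.8 CPM in F2 and 42.1 CPM in F3 and *rbm4.2* overlapped. The sum of the *rbm4* group was 193, 155 and 286 CPM in C2, C3 and C5, against 121 and 137 CPM in F2 and F3. For *rbm14*, the feature *rbm14* had 28.8, 13.8 and 40.1 CPM across C2, C3 and C5, against 4.0 and 6.33 CPM across F2 and F3, and *rbm14a* had 17.6, 48.1 and 5.53 CPM across C2, C3 and C5, against 59.0 and 67.1 CPM across F2 and F3. Their sum was 46.4, 61.9 and 45.6 CPM in C2, C3 and C5, against 63.0 and 73.4 CPM in F2 and F3. The summed level was thus higher in every cryopreserved sample for *hnrnpa0* and *rbm4*, and lower for *rbm14*.

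The second *rbm25* feature, AUIFUG00000034714, had 121, 99.4 and 108 CPM across C2, C3 and C5, against 92.9 and 79.9 CPM across F2 and F3, a log2 fold change of 0.34. Its ID directly follows that of the upregulated feature, and whether the 2 are separate genes or pieces of 1 gene was not tested. Their sum was 387, 181 and 351 CPM in C2, C3 and C5, against 105 and 86.9 CPM in F2 and F3. In this group the summed level was also higher in every cryopreserved sample.

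**Figure D4:**
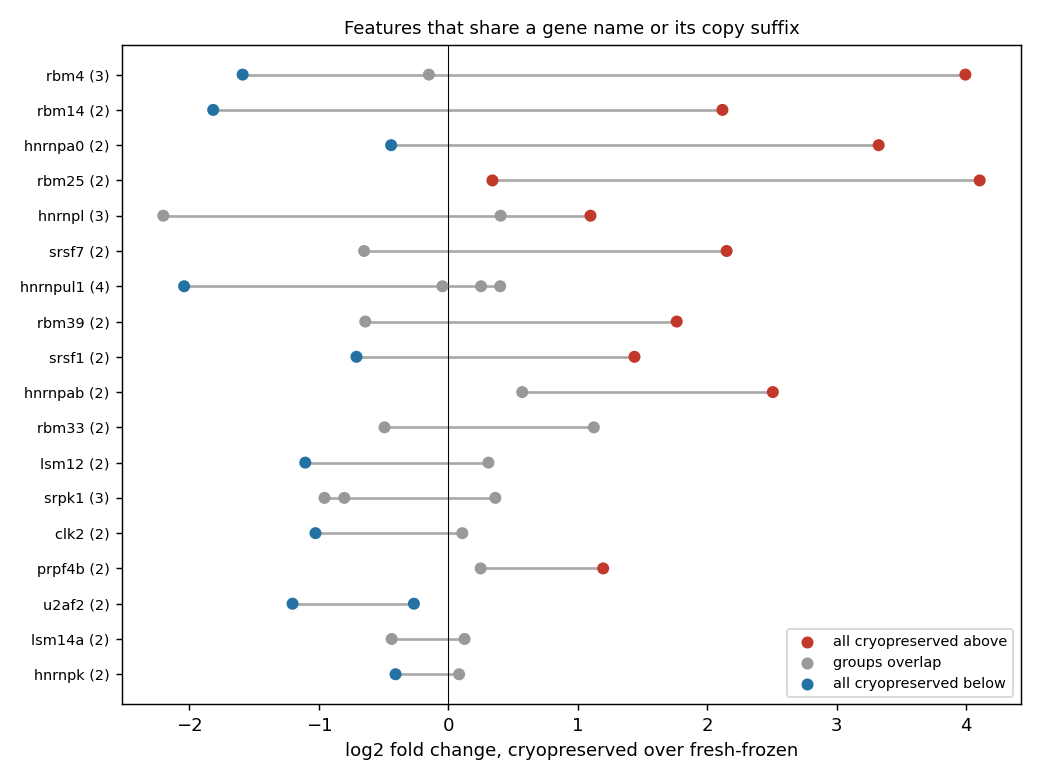
Log2 fold change, cryopreserved over fresh-frozen in the values as deposited, of features that share a gene name or its copy suffix (number of features in brackets), ordered by the distance between the highest and the lowest. Red points are features with all cryopreserved samples above both fresh-frozen samples, blue points those with all below, and grey points those that overlap. The *rbm4* group spans from −1.59 to 3.99.

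Other factors of the pathway, taken from lists by function, gave a similar mixture. Of 158 listed symbols 130 were found, with 145 features. Of these, 5 were upregulated (3.45%, against 1.54% of all features) and 0 downregulated. Without overlap 52 lay above (35.9%, against 13.6%) and 45 below (31.0%, against 41.7%), and the median log2 fold change was 0.05, against −1.02. The upregulated ones were *alyref*, an mRNA export adaptor, *CWC25*, *CWC15* and *cactin*, which act in the catalytic spliceosome, and *MFAP1*, a tri-snRNP factor. *alyref* had 835 CPM in C2, 373 CPM in C3 and 1384 CPM in C5, against 120.2 CPM in F2 and 123 CPM in F3 (log2 fold change 2.63, FDR = 0.0304). *CWC15* had 465 CPM in C2, 202 CPM in C3 and 657 CPM in C5, against 44.1 CPM in F2 and 35.3 CPM in F3 (log2 fold change 3.29, FDR = 0.0217), and *cactin* had 238, 91.9 and 452 CPM across C2, C3 and C5, against 22.6 and 5.99 CPM across F2 and F3 (log2 fold change 4.07, FDR = 0.0385). In each of them C3 was the lowest cryopreserved sample and still above both fresh-frozen samples. Beside the 0 downregulated features, 10 had a log2 fold change below −2 with an unadjusted p below 0.05. The share of all features at that threshold is not given. A log2 fold change below −2 at any p was found in 19.6% of all features. With the block 14 features were upregulated (9.66%), against 4.17% of all features. Without C3 there were 22 upregulated (15.2%) and 22 downregulated (15.2%) features, against 6.77% and 25.6% of all features. Without C5 there were 9 upregulated (6.21%, against 3.1%), without F2 3 (2.07%, against 1.17%), and without C2 or F3 none, with 10 and 11 that had a log2 fold change above 2 and an unadjusted p below 0.05.

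The lists differed among themselves. Of 13 exon junction complex and SR-related features, 9 were above and 1 below, with a median of 1.21, and *upf3a* and *srrm2* had the largest changes beside *alyref* without passing the test (3.26 and 2.96, FDR = 0.0644 and 0.0537). With the block both were upregulated (FDR = 0.000593 and 4.5e-07). Other U1, U2 and tri-snRNP factors had 15 of 30 above and 5 below (median 0.53), the Prp19 complex and step factors 12 of 26 above and 7 below (median 0.39), and the helicases 6 of 16 above and 4 below (median 0.24). Partners of snRNP assembly and of the LSm rings had 7 of 22 above and 8 below (median −0.17). The tissue-specific and other regulators of alternative splicing that do not carry an SR, hnRNP or RBM name had 3 of 38 above (7.89%). Of the 38, 20 lay below (52.6%), and the median was −1.34, against 13.6% above, 41.7% below and −1.02 for all features. That median was −0.27, −0.29 and −0.36 under the 3 scalings. Among them *celf5* had 9.03 CPM in C2, 41.1 CPM in C3 and 0.374 CPM in C5, against 70.7 CPM in F2 and 63.3 CPM in F3, *rbfox1* had 40.0 CPM in C2, 128 CPM in C3 and 2.70 CPM in C5, against 158 CPM in F2 and 184 CPM in F3 and *MBNL1* had 16.1, 85.8 and 4.36 CPM across C2, C3 and C5, against 111 and 113 CPM across F2 and F3, all with C5 lowest and none past the test. *SFPQ*, a paraspeckle protein, had 415, 227 and 619.8 CPM across C2, C3 and C5, against 65.9 and 77.4 CPM across F2 and F3 (log2 fold change 2.42, FDR = 0.0530, with the block 0.000519).

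**Figure D5:**
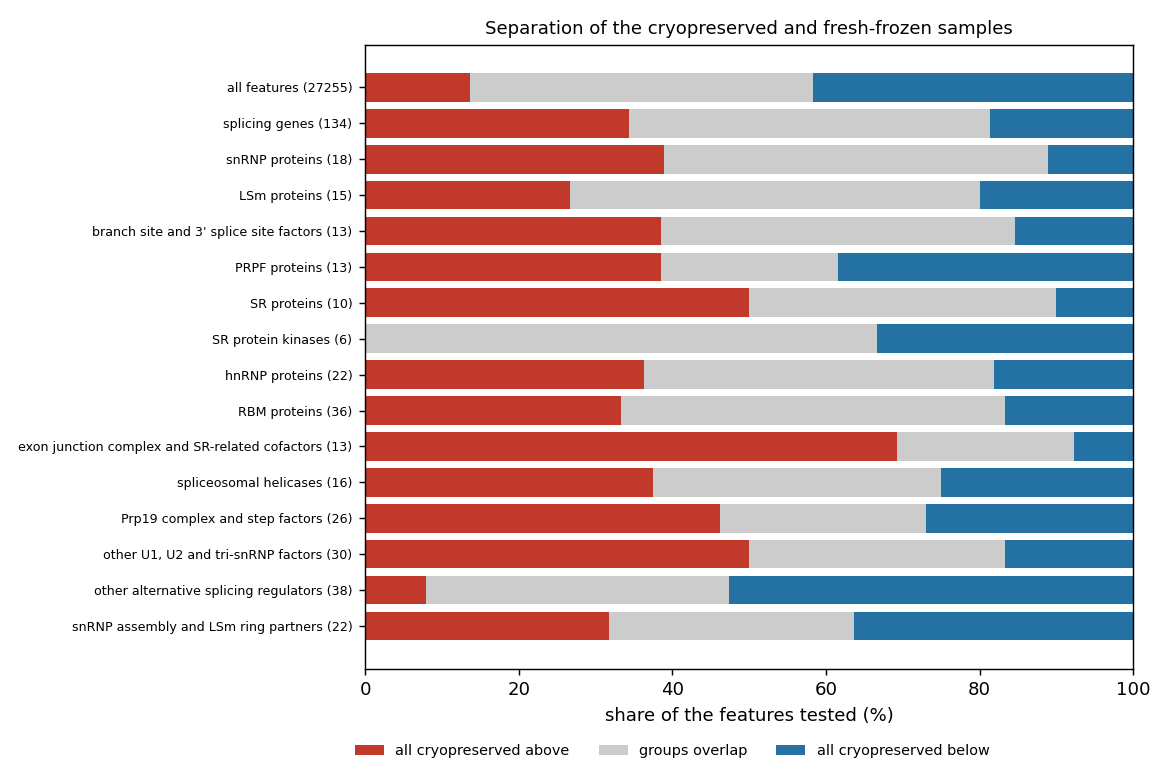
Share of features with all 3 cryopreserved samples above both fresh-frozen samples (red), overlapping groups (grey) or all 3 below (blue), for all features, the 134 splicing genes, their role groups and the other pathway lists (number of features tested in brackets). Red takes 34.3% of the splicing genes and 13.6% of all features, and blue 18.7% and 41.7%.

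Markers of cell types also differed between the samples. The 20 features of spermatid and sperm markers, which include tektins and axonemal proteins, summed to 9412, 5037 and 17737 CPM in C2, C3 and C5, against 1148 and 1154 CPM in F2 and F3. Of them 15 lay above (75.0%, against 13.6% of all features) and 3 below (15.0%, against 41.7%). Upregulated were 9 of the 20, against 1.54% of all features. These transcripts were present in each sample, whose labels give sperm as the tissue. Meiotic markers (13 features) summed to between 142 and 676 CPM in the cryopreserved samples, against 716 to 766 CPM in the fresh-frozen ones. Of them 5 lay below (38.5%, against 41.7% of all features) and none above (0.0%, against 13.6%). The share below was thus near that of the table. The median log2 fold change of the meiotic features was −0.57 as deposited. It turned to 0.58, 0.48 and 0.31 under TMM rescaling, median centring and quantile normalization. Premeiotic germ cell markers (9 features) gave 329 to 546 CPM against 616 to 619 CPM, Sertoli cell markers (7 features) 9.92 to 154 CPM against 166 to 189 CPM, and Leydig cell markers (5 features) 11.1 to 42.6 CPM against 45.2 to 61.9 CPM. Among the premeiotic features 3 lay below (33.3%, against 41.7% of all features), 6 overlapped and none lay above. Leydig cell features had 1 above, 1 below and 3 overlapping. Of the Sertoli cell features 2 lay below (28.6%) and 5 overlapped. The share below thus exceeded that of the table in none of these lists. In C3, F2 and F3 most of the Sertoli cell sum was *sox9*. That gene had 17.7, 111 and 0.873 CPM across C2, C3 and C5, against 108 and 129 CPM across F2 and F3. Red blood cell markers (8 features) reached 3759, 801 and 223 CPM in C2, C3 and C5, against 227 and 194 CPM in F2 and F3. Of these features 2 lay above and 2 below (25.0% each, against 13.6% and 41.7% of all features). They include the upregulated *HBB*, at 2532 CPM in C2, 389.9 CPM in C3 and 91.5 CPM in C5, against 16.8 CPM in F2 and 7.41 CPM in F3. White blood cell markers (10 features) gave 411 to 528 CPM against 499 to 520 CPM, with 2 above, 4 below (40.0%, against 41.7% of all features) and 4 overlapping. Of all marker features only *inha*, a Sertoli cell marker, was listed at 0, in C5. The part of these differences in the changes of the splicing genes was not tested.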

How the data were processed

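Per the submitters' processing notes, the authors checked reads with FastQC 0.11.6, trimmed them with Trimmomatic 0.39, mapped them with TopHat2 2.1.1, used HTSeq 1.0 for counts per gene and edgeR for testing. Strand use and the treatment of multiply mapped reads are not given in the sources used here. The authors deposited values that they call RPKM. The columns of C2, C3, C5, F2 and F3 sum to between 992942 and 997389, and their mean ranks the features as the deposited average log2 CPM does (Spearman's rho 1.00), so the deposited values were treated as CPM, that is, scaled to a total without gene length. The log2 column served only for this check. The test designed for RPKM, limma on log2 values, also fits CPM. The study lists filtered reads and mapping rates per library, which were not used here. Counts could not be recovered from the values: low values lay near whole multiples of a common spacing (within 0.1 of it) for 100.0% of values in F2, but for 34.7% to 62.9% in the other columns, so no test on counts was made.

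The technical replicates of C2 were averaged. Values were transformed to log2(CPM + 1), and limma 3.58.1 in R 4.3.3, with its trended prior, tested the cryopreserved against the fresh-frozen samples. The 27255 features whose mean exceeded 1 CPM in either group were tested. All 134 splicing genes passed this filter. FDRs are Benjamini-Hochberg adjusted over all features tested, and a call needed an FDR below 0.05 and a log2 fold change beyond 2 in either direction. The scripts were tested on simulated data. Tables and figures used Python 3.11.15, numpy 2.4.6, pandas 2.3.3 and matplotlib 3.10.9. F5 was not analysed here.

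The paper gives the sample number as the male, so males 2 and 3 pair the groups. Across features, F2 minus F3 and C2 minus C3 had a correlation of −0.018. The male was added as a replicate block in a separate fit. Each library was left out in turn, and the pseudocount, the filter, the scaling, the prior, the technical replicate of C2 and the thresholds were varied.

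The genes named by rule were *naa38*, every splicing gene with an FDR below 0.05, the 12 largest changes in each direction among those whose groups do not overlap, and, in each role group, the largest positive, the largest negative and the smallest change. Other genes named were chosen for their role after their values were seen. The splicing genes, the pathway and marker lists and the alternatives were chosen with earlier results of these data known. No sequence is shown, because the gene list at hand, of another annotation, could not be joined to the feature IDs.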

Additional observations from a re-analysis of the deposited data

How the results depend on the processing

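The number of upregulated splicing genes, 3 of 134, was 0 and 1 with pseudocounts of 0.1 and 0.5 (0.572% and 1.21% of all features were upregulated), 8 with a pseudocount of 5 (all features 2.46%), 6 under TMM rescaling (2.01%), 0 under median centring (0.0%), 21 under quantile normalization (5.21%), 0 with a constant prior (0.0%) and 10 with the replicate block (4.17%). As shares of the splicing genes, 8, 6, 21 and 10 are 5.97%, 4.48%, 15.7% and 7.46%. At an unadjusted p below 0.05 and a log2 fold change above 2, the 3 settings with 0 calls had 15, 35 and 13 genes. Leaving out a library gave 0 to 19 upregulated and 0 to 8 downregulated genes. The 0 downregulated genes became 1 under quantile normalization (all features 0.367%). The median log2 fold change of 0.25 was 1.44 under TMM rescaling, 1.30 under median centring and 0.75 under quantile normalization, and 0.16 to 0.28 with a library left out. The count of 3 did not change without a fold threshold, without the filter or with either technical replicate of C2 alone, and with a filter at a group mean above 5 CPM it was 2 of 129, since *SRSF6* lost its call. The cause of these changes was not tested, except that fewer samples enter when a library is left out.

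Some named genes changed direction. *LSM3* was at 1.1, 0.998 and 0.79 under TMM rescaling, median centring and quantile normalization and at 0.30 with the block, *HNRNPUL1* AUIFUG00000039235 at 1.11, 1.005, 0.75 and 0.036, and *RBM15* at 1.09, 1.05, 0.92 and 0.24. *RBM15* was at 0.0051 and 0.0015 with pseudocounts of 0.1 and 0.5. With the second technical replicate of C2, *RBM15* was at 0.014 and this *HNRNPUL1* feature at 0.068. *prpf6* was at 0.99 and 0.84 under TMM rescaling and median centring, and *SRSF11* at 0.019 under TMM rescaling. With a library left out, log2 fold changes ran from −0.47 to 0.35 for *LSM3*, from −0.64 to 0.63 for *RBM15*, from −0.37 to 0.26 for *HNRNPUL1* AUIFUG00000039235, from −0.71 to 0.93 for *clk2b*, from −0.038 to 0.27 for *srsf3*, from −0.020 to 0.18 for *sf3b3* and from −0.41 to 0.54 for *snrnp70*. Over the 40 named genes and their alternatives, 574 values kept direction and call, 52 gained a call, 21 lost it and 32 changed direction. Among the splicing genes, the block changed no call beside those given with it in the report. Because counts were not at hand, counting error at low values could not be separated from spread between males.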
